A study of Mus musculus with 21 samples.

Results

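Basal spiral ganglion neurons expressing a dominant-negative HCN2 channel (DN-HCN2) were compared with basal control neurons, using 7 of the 21 libraries of the series. The libraries were taken by their titles: 3 of DN-HCN2 base and 4 of control base. About 50 neurons, drawn up with a micropipette from the cochlea at postnatal day 7, made 1 library of polyadenylated RNA by Smart-seq2, a full-length method for very small RNA inputs. Controls, labelled wild type, carried EGFP in an adeno-associated virus (AAV), and the DN-HCN2 group carried an HCN2 channel with a site mutation in the same kind of virus. Both groups were therefore virus-treated and differed in the insert. The promoter of the virus, its serotype, the mutated residue, the strain and the animals behind each library are not given in the labels, which call the libraries biological replicates. The p-values below rest on the spread between libraries within all 6 groups of the series, fitted together, whatever its source. They do not use the spread of the 7 basal libraries alone. A virus with a truncated SK3 channel, and neurons from the apex, were otherwise used only to place the basal values.

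Spiral ganglion neurons carry sound signals from hair cells to the brainstem, and those of the base serve high frequencies. HCN channels open on hyperpolarization, are modulated by cyclic AMP and pass an inward cation current that sets resting potential, input resistance and firing. A dominant-negative subunit joins channel tetramers and blocks their current without removing the native transcript. In the first postnatal week hair cells release transmitter in spontaneous bursts, and the firing that follows shapes synapses, myelination and the diversity of these neurons.

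The 7 libraries held 10825369 to 14557161 counts. Spearman correlations across genes ran from 0.947 to 0.967 among controls and from 0.875 to 0.915 among the DN-HCN2 libraries, so the treated libraries differed more from each other. All levels are counts per 1000000 counts of the library after TMM scaling (CPM), given in the order of the replicate numbers, controls first. The 18 markers of spiral ganglion neurons summed to 23120, 20080, 18980 and 18690 CPM in the controls and to 12970, 15850 and 22560 CPM under DN-HCN2. None was at 0 in every library of a group, so the labelled identity was present in both. Schwann and satellite glial markers, 21 in number, summed to 27270, 15450, 29750 and 24020 CPM and 10930, 12550 and 17530 CPM. Glial RNA was thus as abundant as the neuronal marker RNA, and its range overlapped between groups. In pooled cells, fewer cells of a type and less RNA per cell cannot be told apart.

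Macrophage markers set 2 libraries apart. The 18 markers summed to 39.7, 27.2, 62.4 and 23.8 CPM in the controls and to 35.7, 1876 and 1767 CPM under DN-HCN2. Replicates 2 and 3 of DN-HCN2 base were above every control for 18 and 17 of these markers, and replicate 1 for 5. The highest of the 14 libraries of other groups reached 592 CPM. Replicate 1 stood out in other ways: its fibroblast markers summed to 4955 CPM against 454 to 3720 CPM in the controls, and its supporting cell markers to 2905 CPM against 488 to 852 CPM. Oligodendrocyte markers summed to 2727, 241, 2101 and 1642 CPM in the controls and to 242, 176 and 169 CPM under DN-HCN2. Control replicate 2 was as low as the DN-HCN2 libraries for these. Values from a fit without replicates 2 and 3, here called replicate 1 alone, are therefore given beside many results. That lone library is assumed to vary like the other groups.

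**Figure D1:**
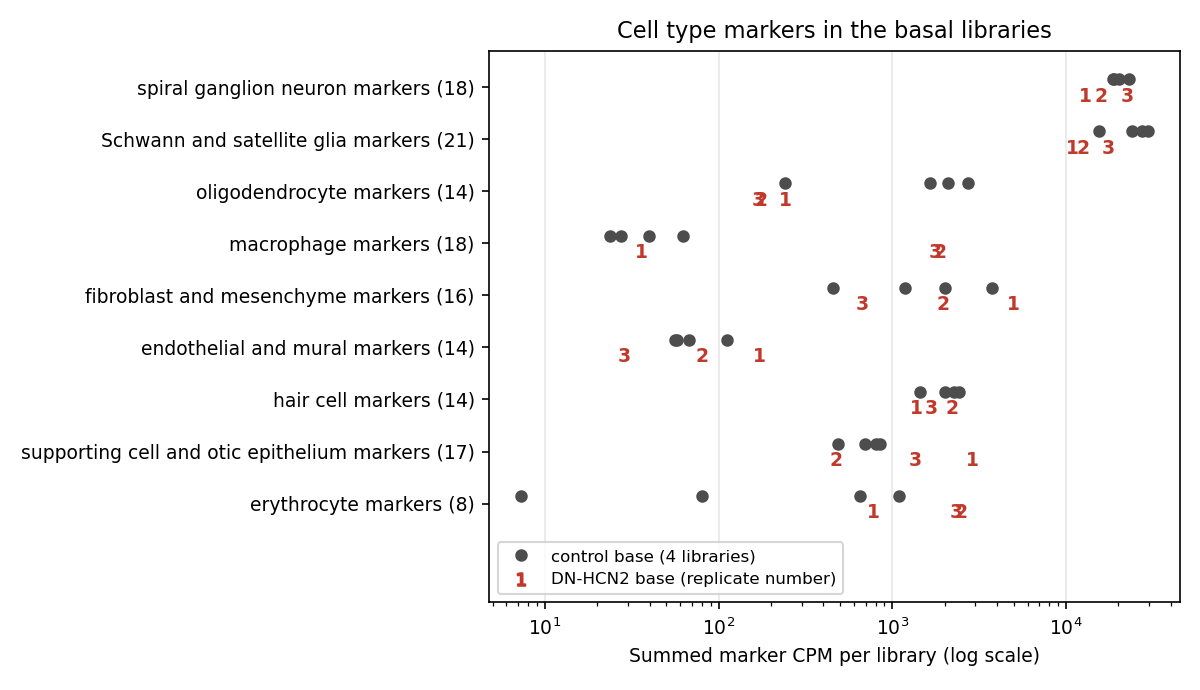
Summed CPM of 9 cell type marker lists in each basal library on a log axis, with the number of markers in brackets; grey points are the 4 control libraries and red numbers are the DN-HCN2 replicates. Macrophage markers lie at 24 to 62 CPM in the controls and at 36, 1876 and 1767 CPM in DN-HCN2 replicates 1, 2 and 3.

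At a false discovery rate of 0.05, 320 of the 14968 genes tested (2.14%) were called by edgeR, of which 126 (0.842%) were higher with DN-HCN2 and 194 (1.3%) lower. The groups did not overlap for 114 of the 126 and for all 194. For comparison, 8.02% of all tested genes had the 3 DN-HCN2 libraries above the 4 controls and 9.03% had them below. A small p favours genes whose groups do not overlap, so this comparison gives the calls no separate support. A set of 69 genes (0.461% of genes tested), 20 higher (0.134%) and 49 lower (0.327%), was called in all 7 fits that left out 1 library and did not overlap between the groups. The condition on overlap removed no gene from this set. The count of calls was 107 to 569 when 1 library was left out, lowest without control replicate 4 and highest without DN-HCN2 replicate 1. Among the 20, 7 of 19 annotated genes had 20% or more of their sequence, counted in stretches of 50 bases, in another transcript as well, against 5.63% of all genes. The lower calls were on longer transcripts, with a median of 5086 bases against 2453 for the higher calls and 3418 for all genes. Transcripts over 5000 bases supplied 17.6% to 18.6% of counts in the controls, 18.4% in DN-HCN2 replicate 1, and 13.8% and 13.5% in replicates 2 and 3. After correction for GC content and transcript length, 199 genes were called, 159 of them among the 320. Of 83 called genes followed under that correction, 59 kept the call and 24 lost it. Those that lost it include Adamts5, Dmd, Nptn, Cntn1, Nfasc, Il1rap, Ptprs, Sv2a, Kcnj10, Atp6v1g1, Cyp51, Ier2 and Qk (edgeR adjusted p 0.0543 to 0.171), whose other values are given below.

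The targeted gene family came first. Hcn2 (GRCm38, chromosome 10, 79716634 to 79736108), the gene of the mutated channel, was at 61.97, 89.8, 9.84 and 84.99 CPM in the controls and at 29.7, 21.6 and 34.9 CPM under DN-HCN2. Control replicate 3 lay below all 3 DN-HCN2 libraries and the other 3 controls above them, so the ranges overlapped. Hcn2 had a log2 fold change of -1.10 (SE 0.89, edgeR adjusted p = 0.558). No insert sequence is given, and these gene counts do not tell native from viral transcripts. Hcn3 was at 7.58, 7.35, 6.17 and 12.7 CPM and 17.4, 18.4 and 23.6 CPM, higher in every DN-HCN2 library, at an edgeR adjusted p of 0.303. Hcn4 and Pex5l, the auxiliary subunit that controls HCN trafficking, overlapped between the groups, with log2 fold changes of -0.58 and 0.28 (edgeR adjusted p = 0.532 and 0.724). Kcne2, an accessory subunit gene, was at 0 in 3 controls and in 1 DN-HCN2 library. Of the 6 genes in the list, 0 were called.

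**Figure D2:**
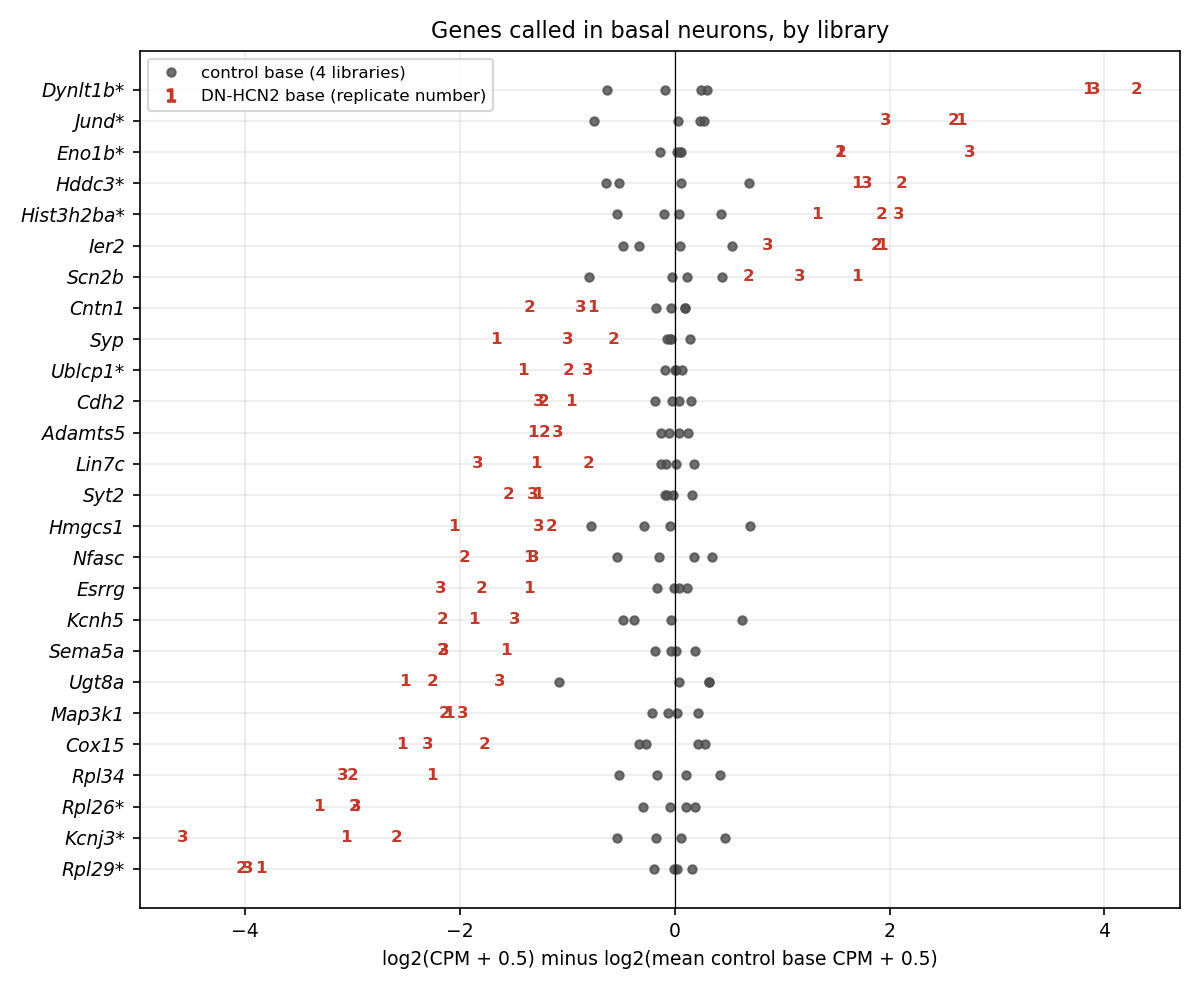
Level of each gene in each basal library as log2(CPM + 0.5) minus the log2 of the control mean + 0.5; grey points are the 4 controls and red numbers the DN-HCN2 replicates. An asterisk marks genes that share at least 20% of their sequence with another gene or overlap an antisense gene by that much; all 3 DN-HCN2 libraries lie outside the control range for each gene shown.

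Genes of the presynaptic terminal had more negative than positive values, with few calls. Syt2 (chromosome 1, 134646677 to 134762593) encodes the calcium sensor of fast vesicle fusion. It was at 279, 294, 282 and 332 CPM in the controls and at 122, 101 and 118 CPM under DN-HCN2. The treated libraries were all far below the lowest control. Syt2 had a log2 fold change of -1.39 (SE 0.22, edgeR adjusted p = 0.0028), and the call stood in all 7 fits without 1 library. In replicate 1 alone the log2 fold change was -1.25 and the call was lost (edgeR adjusted p = 0.104). Syp (chromosome X, 7638471 to 7653256), a major vesicle membrane protein, was at 1081, 1047, 1072 and 1218 CPM and 349, 745 and 553 CPM. The lowest treated library was replicate 1, in which macrophage markers summed to 35.7 CPM (log2 fold change -1.64 in replicate 1 alone). Spiral ganglion neuron markers summed to 12970, 15850 and 22560 CPM in the treated libraries, against 18690 to 23120 CPM in the controls. The part of neuronal RNA content in the values of presynaptic genes was not tested. With all libraries Syp had a log2 fold change of -1.01 (SE 0.21, edgeR adjusted p = 0.0161), and the call was lost without control base replicate 4 (edgeR adjusted p = 0.0505). Sv2a, another vesicle glycoprotein, was at 383, 365, 347 and 443 CPM and 200.4, 213 and 257 CPM without overlap. Sv2a had a log2 fold change of -0.78 (SE 0.19, edgeR adjusted p = 0.0385), and the call stood in none of the 7 fits without 1 library (edgeR adjusted p 0.0537 to 0.118).

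Over the list of synaptic vesicle genes, 0 of 28 were called higher and 2 lower, Syp and Sv2a. Negative values were found for 24 of 28, with a median log2 fold change of -0.45 against 0.03 for all genes tested. In each DN-HCN2 library 20 to 22 of the 28 were below the mean of the controls, against 8 to 20 in the control libraries. Of 14 synaptotagmins, Syt2 alone was called. SNARE proteins and complexins, which drive fusion itself, had 0 of 22 called and a median of -0.04. Vacuolar proton pump subunits, which acidify vesicles and lysosomes, had a median of 0.02 over 18 genes and 1 rise, Atp6v1g1. That gene was at 163, 104, 109 and 119 CPM and 174, 391.7 and 182 CPM, highest in replicate 2. Atp6v1g1 had a log2 fold change of 1.01 (SE 0.23, edgeR adjusted p = 0.0243), and the call was lost without control base replicates 2, 3 or 4 or DN-HCN2 base replicate 2 (edgeR adjusted p 0.0675 to 0.157). In replicate 1 alone the value was 0.52 (edgeR adjusted p = 0.354).

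Among 23 active zone scaffold genes, 1 fell and 19 had negative values, with a median of -0.38. The gene called was Lin7c (chromosome 2, 109890853 to 109901003), whose product joins a scaffold that links adhesion molecules to the release site. It was at 74.9, 77.5, 82.5 and 93.1 CPM and 33.1, 46.9 and 22.6 CPM, with every treated library below every control. Lin7c had a log2 fold change of -1.26 (SE 0.25, edgeR adjusted p = 0.0116), and the call was lost without DN-HCN2 base replicate 3 (edgeR adjusted p = 0.0548). Rims2, which tethers vesicles and calcium channels, was at 78.2, 67.8, 49.3 and 56.1 CPM and 38.03, 33.6 and 26.3 CPM. These values did not overlap, and the test gave an edgeR adjusted p of 0.0669. Bassoon, Bsn, overlapped at 37.4, 41.3, 35.2 and 40.7 CPM and 39.5, 20.02 and 16.5 CPM, with replicate 1 inside the control range. Slc17a7, the vesicular glutamate transporter of these neurons, was at 226, 212, 153 and 206 CPM and 134, 75.2 and 89.1 CPM, lower in all 3 and not called (edgeR adjusted p = 0.221). On the receiving side, 0 of 22 AMPA, NMDA and kainate receptor genes and 0 of 23 postsynaptic scaffold genes were called (medians -0.40 and -0.18).

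Ion channel lists held few calls. Kcnh5 (chromosome 12, 74897220 to 75177332), a voltage-gated potassium channel of the ether-à-go-go family, was at 26.1, 28.2, 56.8 and 35.7 CPM in the controls and at 9.71, 7.79 and 12.8 CPM under DN-HCN2. The highest treated library was below the lowest control. Kcnh5 had a log2 fold change of -1.86 (SE 0.39, edgeR adjusted p = 0.0161), and the call was lost without DN-HCN2 base replicate 2 (edgeR adjusted p = 0.0707). In the apex, Kcnh5 was at 59.3, 44.1, 33.95 and 46.01 CPM in the controls and at 10.1, 14.97, 20.6 and 13.8 CPM under DN-HCN2, without overlap (edgeR adjusted p = 0.0532). Kcnh5 was the sole call among 35 voltage-gated potassium channel genes, of which 24 had negative values (median -0.68). Kcna1, a low-threshold channel that limits repetitive firing, was at 482, 635, 504 and 531 CPM and 313, 328 and 286 CPM, also without overlap, at an edgeR adjusted p of 0.163. Kcnc1, of the fast-spiking class, overlapped, at 226, 277, 115 and 326 CPM and 176, 135 and 308 CPM.

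Kcnj3 (chromosome 2, 55435970 to 55598145) encodes an inward rectifier opened by G proteins. It was at 7.76, 16.1, 10.1 and 11.96 CPM in the controls and at 0.937, 1.48 and 0 CPM under DN-HCN2, under 2 CPM in all 3. Kcnj3 had a log2 fold change of -3.81 (SE 0.79, edgeR adjusted p = 0.0161), and the call stood in all 7 fits without 1 library. An antisense gene overlaps 31.1% of its exons, and without strand the reads of the pair cannot be told apart. Kcnj10, an inward rectifier of cochlear satellite glia, was at 159.9, 132, 167 and 191 CPM and 66.3, 60.6 and 101 CPM. Kcnj10 had a log2 fold change of -1.10 (SE 0.27, edgeR adjusted p = 0.0381), and of the 7 fits without 1 library only those without control base replicate 2 or DN-HCN2 base replicate 3 kept the call (edgeR adjusted p 0.0695 to 0.133 in the others). Of 15 inward rectifier and leak channel genes these 2 were called, both lower.

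A sodium channel gene rose. Scn2b (chromosome 9, 45117782 to 45130070), an auxiliary subunit that raises the surface density of sodium channels, was at 158, 174, 91.8 and 218 CPM in the controls and at 519, 258 and 359 CPM under DN-HCN2. Replicate 1 was highest, and all 3 were above every control. Scn2b had a log2 fold change of 1.24 (SE 0.27, edgeR adjusted p = 0.0223), and the call was lost without control base replicates 1 or 3 or DN-HCN2 base replicate 1 (edgeR adjusted p 0.0562 to 0.0687). In replicate 1 alone the value was 1.73 and still called (edgeR adjusted p = 0.025). The other 11 genes of the 12 in the sodium channel list were not called. Voltage-gated calcium channel subunits had 0 of 19 called, with a median of -0.37 and 14 negative values. Cacna1d and Cacna1b overlapped between the groups, with log2 fold changes of -0.10 and -0.37. Of 21 calcium pumps, exchangers and buffers 0 were called. Slc24a2, a potassium-dependent sodium-calcium exchanger named after its values were seen, was at 347, 393, 245 and 385 CPM and 68.7, 74.6 and 116 CPM. All 3 treated libraries were under 0.5 times the lowest control. Slc24a2 had a log2 fold change of -1.98 (SE 0.35, edgeR adjusted p = 0.00526), and the call stood in all 7 fits without 1 library.

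In each of 4 families of adhesion and axon membrane genes, 2 members were called, all lower, where 1.3% of all genes were. Cntn1 (chromosome 15, 92051165 to 92341967), a contactin that anchors myelin loops beside the node of Ranvier, was at 414, 378, 344 and 414 CPM in the controls and at 228, 151 and 210.4 CPM under DN-HCN2. No treated library reached the lowest control. Cntn1 had a log2 fold change of -0.98 (SE 0.17, edgeR adjusted p = 0.00553), and the call stood in all 7 fits without 1 library. Nfasc, a cell adhesion molecule of nodes and axon initial segments, was at 318, 172, 226 and 282 CPM and 97.1, 63.7 and 99.99 CPM, without overlap. Nfasc had a log2 fold change of -1.52 (SE 0.36, edgeR adjusted p = 0.0302), and of the 7 fits without 1 library only those without control base replicate 2 or DN-HCN2 base replicate 1 kept the call (edgeR adjusted p 0.0507 to 0.118 in the others). These 2 were the calls among 22 contactin and node genes, 17 of them negative (median -0.52). In replicate 1 alone the log2 fold changes of Cntn1 and Nfasc were -0.74 and -1.33 (edgeR adjusted p = 0.175 and 0.307).

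Cdh2 (chromosome 18, 16588877 to 16809246), or N-cadherin, joins neurons to each other and to glia. It was at 94.1, 105, 118 and 110 CPM in the controls and at 54.4, 45.7 and 44.3 CPM under DN-HCN2, a narrow range in both groups. Cdh2 had a log2 fold change of -1.15 (SE 0.20, edgeR adjusted p = 0.00485), and the call stood in all 7 fits without 1 library. Cdh20, a cadherin with a low level in the controls (5.05, 5.58, 4.88 and 5.77 CPM), was at 0.0669, 0 and 0 CPM under DN-HCN2, with 1 count over 3 libraries against 291 over 4. The ratio of the mean levels was 195-fold (95% counting interval 34.8 to 7740), and edgeR called it (log2 fold change -7.24, SE 1.23, edgeR adjusted p = 0.00413), and the call stood in all 7 fits without 1 library. Among 33 cadherins and protocadherins, 23 had negative values (median -0.39) and these 2 were called.

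Sema5a (chromosome 15, 32244810 to 32696341), a transmembrane semaphorin that guides axons and limits synapse number, was at 259, 234, 268 and 302 CPM in the controls and at 89.05, 59.03 and 59.4 CPM under DN-HCN2. The highest treated library was under 0.5 times the lowest control. Sema5a had a log2 fold change of -1.94 (SE 0.26, edgeR adjusted p = 0.000508), and the call stood in all 7 fits without 1 library. Plxnb3, which encodes a receptor for Sema5a, was at 49.6, 7.42, 45.2 and 43.2 CPM and 7.23, 2.13 and 3.39 CPM. Control replicate 2 was close to DN-HCN2 replicate 1, and oligodendrocyte markers were low in that control as well. Plxnb3 had a log2 fold change of -3.08 (SE 0.76, edgeR adjusted p = 0.0417), and of the 7 fits without 1 library only those without control base replicate 2 or DN-HCN2 base replicate 1 kept the call (edgeR adjusted p 0.0729 to 0.133 in the others). Of 47 semaphorins, plexins, slits and netrins, 0 rose and these 2 fell. Among 46 synaptic organizers the calls were Il1rap and Ptprs, both lower. Il1rap, a receptor accessory protein that also induces presynaptic terminals, was at 42.5, 18.9, 31.8 and 56.9 CPM and 10.4, 15.9 and 8.16 CPM (log2 fold change -1.70, SE 0.42, edgeR adjusted p = 0.0397), and of the 7 fits without 1 library only that without control base replicate 2 kept the call (edgeR adjusted p 0.0562 to 0.129 in the others). Ptprs, a receptor phosphatase of presynaptic terminals, was at 221, 272, 291 and 377 CPM and 204, 154 and 131 CPM (log2 fold change -0.83, SE 0.21, edgeR adjusted p = 0.0477), and of the 7 fits without 1 library only those without control base replicate 1 or DN-HCN2 base replicate 1 kept the call (edgeR adjusted p 0.0804 to 0.157 in the others). Eph receptors and ephrins had 0 of 21 called and a median of 0.00.

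Adamts5 (chromosome 16, 85856173 to 85901828), a protease that cuts aggrecan and other proteoglycans, was at 171, 144, 152 and 162 CPM in the controls and at 62.6, 67.7 and 73.6 CPM under DN-HCN2. Adamts5 had a log2 fold change of -1.21 (SE 0.17, edgeR adjusted p = 0.000893), and the call stood in all 7 fits without 1 library. It stayed called in replicate 1 alone (-1.30, edgeR adjusted p = 0.036) but not after correction for GC content and length (edgeR adjusted p = 0.171). The following 5 genes, of matrix or membrane, were named after their values were seen. Lama1, a laminin chain of basement membranes, was at 132, 132, 134 and 136 CPM and 28.99, 23.4 and 48.2 CPM. The 4 controls lay within 5 CPM of each other and all treated libraries under 0.5 times the lowest. Lama1 had a log2 fold change of -1.99 (SE 0.31, edgeR adjusted p = 0.00188), and the call stood in all 7 fits without 1 library. Dmd, or dystrophin, which ties the cytoskeleton to laminin receptors, fell from 54.3, 81.05, 82.3 and 92.1 CPM to 11.1, 32.9 and 26.5 CPM (log2 fold change -1.72, SE 0.31, edgeR adjusted p = 0.00576), lowest in replicate 1. Nptn, a synaptic adhesion protein and subunit of the calcium pump complex, fell from 483, 568, 626 and 567 CPM to 267, 379 and 297 CPM (log2 fold change -0.83, SE 0.15, edgeR adjusted p = 0.0058). Mmp14, a membrane-bound protease that activates other matrix proteases, rose from 78.6, 72.2, 65.95 and 46.1 CPM to 250.1, 298 and 215 CPM (log2 fold change 1.95, SE 0.37, edgeR adjusted p = 0.00865). Ltbp3, which binds latent TGF-beta in the matrix, rose from 18.4, 26.4, 25.2 and 27.7 CPM to 78.8, 66.1 and 39.4 CPM (log2 fold change 1.33, SE 0.27, edgeR adjusted p = 0.0131). All 5 were called in each of the 7 fits without 1 library. After correction for GC content and length Dmd and Nptn lost the call (edgeR adjusted p = 0.121 and 0.0925) and the other 3 kept it. Fibroblast markers summed to 4955, 1965 and 673 CPM in the treated libraries, an order that Ltbp3 followed and Mmp14 did not. Their part in these results was not tested.

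Regulators of transcription and signalling were next. Esrrg (chromosome 1, 187608791 to 188214885), an orphan nuclear receptor that drives oxidative metabolism, was at 183, 211, 222 and 204 CPM in the controls and at 79.7, 58.5 and 44.95 CPM under DN-HCN2. Replicate 1 was highest of the treated libraries and still under 0.5 times the lowest control. Esrrg had a log2 fold change of -1.75 (SE 0.31, edgeR adjusted p = 0.00553), and the call stood in all 7 fits without 1 library. It was the 1 call among 11 estrogen-related receptors and coactivators (median 0.23). Respiratory chain genes had 0 of 39 called and a median of -0.11, with the 39 genes at a median of -0.47 in replicate 1 and 0.02 and 0.05 in replicates 2 and 3 against the control mean. Map3k1 (chromosome 13, 111746428 to 111808993), a kinase upstream of JNK and ERK signalling, was at 133, 98.9, 116 and 109.7 CPM and 26.2, 25.5 and 28.7 CPM. The treated libraries lay within 4 CPM of each other and far below every control. Map3k1 had a log2 fold change of -2.09 (SE 0.22, edgeR adjusted p = 1.27e-05), and the call stood in all 7 fits without 1 library. It was also called in replicate 1 alone (-2.10, edgeR adjusted p = 0.0116). Neuron identity and subtype factors had 0 of 28 called (median 0.07). Prox1, a fate regulator, was at 103, 94.3, 102 and 90.5 CPM and 105, 88.3 and 133 CPM. Gata3, required for spiral ganglion development and also made by supporting cells, was at 84.9, 84.1, 73.6 and 45.7 CPM and 236, 43.2 and 249 CPM. It was high in replicates 1 and 3, which also had the higher supporting cell sums of 2905 and 1354 CPM. The part of supporting cell RNA in the Gata3 values was not tested.

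Of 26 RNA-binding regulators of splicing, 2 fell and 0 rose. Mbnl1 (chromosome 3, 60472830 to 60629750) was at 170.3, 239, 376 and 249 CPM in the controls and at 80.95, 54.3 and 33.2 CPM under DN-HCN2. Mbnl1 had a log2 fold change of -2.20 (SE 0.41, edgeR adjusted p = 0.00865), and the call was lost without DN-HCN2 base replicate 3 (edgeR adjusted p = 0.0506). Qk, which is abundant in glia that make myelin, was at 575, 369.7, 462 and 393 CPM and 215, 119 and 99.6 CPM. Qk had a log2 fold change of -1.64 (SE 0.42, edgeR adjusted p = 0.0477), and of the 7 fits without 1 library only that without DN-HCN2 base replicate 1 kept the call (edgeR adjusted p 0.0747 to 0.158 in the others).

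Immediate early genes, switched on within minutes by calcium entry, had positive values in 24 of 26 cases, with a median log2 fold change of 1.01 against 0.03 for all genes. Calls were 2 rises and 0 falls (0.842% of all genes were called higher), and 8 of the 26 had all treated libraries above all controls (8.02% of all genes did). Jund (chromosome 8, 70698949 to 70700616), a subunit of the AP-1 factor, was at 36.4, 37.4, 18.1 and 31.4 CPM in the controls and at 199, 188 and 122 CPM under DN-HCN2. All 3 treated libraries were more than 3-fold above the highest control. Jund had a log2 fold change of 2.46 (SE 0.55, edgeR adjusted p = 0.0272), and of the 7 fits without 1 library only those without DN-HCN2 base replicates 1 or 3 kept the call (edgeR adjusted p 0.0595 to 0.0785 in the others). An antisense gene overlaps 52.6% of its exons, which makes the count uncertain without strand. Ier2 (chromosome 8, 84661331 to 84662852) was at 113, 163, 228 and 125 CPM and 600.5, 579.6 and 287 CPM, with replicate 3 closest to the controls. Ier2 had a log2 fold change of 1.64 (SE 0.42, edgeR adjusted p = 0.0477), and of the 7 fits without 1 library only those without control base replicate 3 or DN-HCN2 base replicate 3 kept the call (edgeR adjusted p 0.0865 to 0.124 in the others).

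Other members were not called. Fos was at 1459, 1475, 1932 and 1405 CPM and 1967, 2197 and 1978 CPM, a difference of 0.39 on the log2 scale (edgeR adjusted p = 0.498), although no treated library was below a control. Egr1 was at 487, 439.7, 487 and 326 CPM and 982, 698 and 645 CPM, and Junb at 231, 323, 435 and 259.8 CPM and 725, 683 and 454 CPM, both without overlap and with edgeR adjusted p-values of 0.142 and 0.205. Atf3, also a marker of axon injury, spread from 17.3 to 272 CPM within the treated group and from 10.5 to 98.7 CPM within the controls. Relative to the control mean, the list's median was 1.71 in replicate 1 and 0.62 and 0.47 in replicates 2 and 3. Control replicate 3, at 0.53, lay between DN-HCN2 replicates 2 and 3. Late activity-regulated genes, which respond over hours, had 0 of 25 called and a median of 0.15. Nptx2, a secreted pentraxin of that list, was at 12.1, 10.9, 11.5 and 16.4 CPM and 1.67, 1.48 and 10.00 CPM (edgeR adjusted p = 0.239), and Bdnf was under 2 CPM in each of the 7 libraries.

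Cholesterol synthesis genes had mostly negative values. Of 24 tested, 22 had negative values, with a median of -0.76 and 4 calls, all lower (1.3% of all genes were called lower). Hmgcs1 (chromosome 13, 119690379 to 119708260) makes the precursor of mevalonate. It was at 573, 407, 1141 and 679.7 CPM in the controls and at 168, 316 and 291 CPM under DN-HCN2. Control replicate 3 was highest and control replicate 2, at 407 CPM, was nearest to the treated libraries. Hmgcs1 had a log2 fold change of -1.44 (SE 0.36, edgeR adjusted p = 0.0458), and of the 7 fits without 1 library only that without control base replicate 2 kept the call (edgeR adjusted p 0.0609 to 0.107 in the others). Cyp51 (chromosome 5, 4081145 to 4104746), the lanosterol demethylase, was at 244, 130, 292 and 205 CPM and 57.4, 122 and 88.1 CPM, where control replicate 2 and DN-HCN2 replicate 2 nearly met. Cyp51 had a log2 fold change of -1.29 (SE 0.34, edgeR adjusted p = 0.0489), and of the 7 fits without 1 library only that without control base replicate 2 kept the call (edgeR adjusted p 0.0546 to 0.124 in the others). Hsd17b7 (chromosome 1, 169949535 to 169969241), a reductase late in the pathway, was at 57.96, 38.9, 63.6 and 75.3 CPM and 15.3, 23.3 and 12.8 CPM. Hsd17b7 had a log2 fold change of -1.78 (SE 0.40, edgeR adjusted p = 0.0227), and the call was lost without control base replicate 4 or DN-HCN2 base replicate 3 (edgeR adjusted p 0.0716 to 0.0887).

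The whole pathway was not uniform. Sqle, the squalene epoxidase, was at 199, 151, 170.1 and 181 CPM and 84.1, 119.5 and 215 CPM and overlapped because of replicate 3. Insig1, which holds back the factor SREBP that switches these genes on, was at 121, 107, 123 and 110.1 CPM and 81.8, 87.4 and 175 CPM, with a log2 fold change of -0.01. Against the control mean, the list's median was -0.88, -0.58 and -0.76 in the 3 treated libraries, and 22, 23 and 18 of its 24 genes were below it. Among controls, replicate 2 was lowest at -0.41, with 22 of 24 genes below the mean, and it also had the lowest sum of glial markers, 15450 CPM against 24020 to 29750 CPM in the other controls. The treated libraries had 10930 to 17530 CPM. The 4 libraries lowest for cholesterol genes were thus the 4 lowest for glial markers, and the part of glial RNA in these calls was not tested.

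Promoters of called genes are shown because these genes were called lower together. The 250 bases upstream of the RefSeq start (build GRCm38.p6), which differs somewhat from the gene ends given above, were taken for 3 called genes: Hmgcs1 (chr13:119690101-119690350, plus strand), Cyp51 (chr5:4104698-4104947, minus strand) and Hsd17b7 (chr1:169969206-169969455, minus strand). Capitals mark the SREBP core motif TCACNCCAC and the CCAAT motif, on either strand.
Hmgcs1: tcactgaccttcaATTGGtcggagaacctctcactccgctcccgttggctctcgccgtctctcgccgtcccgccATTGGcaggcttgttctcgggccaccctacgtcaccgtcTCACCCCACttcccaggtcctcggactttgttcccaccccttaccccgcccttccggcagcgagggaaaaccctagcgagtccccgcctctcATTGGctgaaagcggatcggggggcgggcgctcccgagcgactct
Cyp51: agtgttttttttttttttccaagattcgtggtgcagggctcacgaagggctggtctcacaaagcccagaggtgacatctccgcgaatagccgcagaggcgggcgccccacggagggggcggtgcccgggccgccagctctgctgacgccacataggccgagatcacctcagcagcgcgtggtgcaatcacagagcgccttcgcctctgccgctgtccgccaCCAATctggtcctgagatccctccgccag
Hsd17b7: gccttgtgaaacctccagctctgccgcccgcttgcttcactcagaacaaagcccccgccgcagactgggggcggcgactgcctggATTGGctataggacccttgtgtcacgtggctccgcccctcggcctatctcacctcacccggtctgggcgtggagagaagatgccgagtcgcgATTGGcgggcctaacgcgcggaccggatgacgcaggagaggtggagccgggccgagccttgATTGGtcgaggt
The SREBP core was found in 1 of 20 promoters of the cholesterol list (5.0%), that of Hmgcs1, against 1.05% of 32851 promoters. CCAAT, the motif bound by NF-Y, occurred in 16 of the 20 (80.0%) against 33.8% of all promoters. It was added to the search after these sequences had been seen. Among immediate early genes it was in 9 of 29 promoters, the cyclic AMP element TGACGTCA in 3 (10.3%, against 1.55% of all promoters) and the CArG box in 5 (17.2%, against 1.47%). These 29 promoters belong to 23 genes, so some genes were counted more than once. The 5 promoters with a CArG box belong to Egr2 and Zfp36 alone, neither of them called. A match describes the letters and shows no binding.

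**Figure D3:**
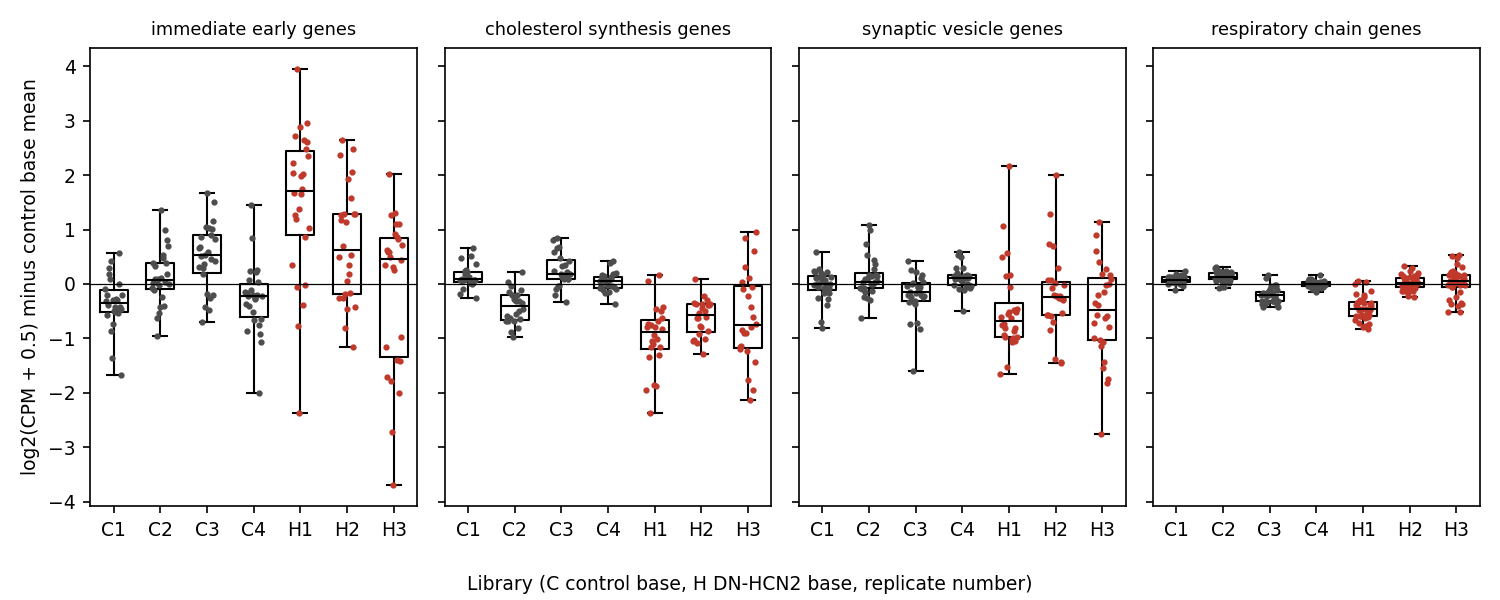
Each gene of 4 lists in each basal library as log2(CPM + 0.5) minus the control mean, with boxes for quartiles and whiskers to the extremes; C1 to C4 are controls and H1 to H3 the DN-HCN2 replicates. Immediate early genes have medians of 1.71, 0.62 and 0.47 in H1 to H3 and cholesterol genes -0.88, -0.58 and -0.76, while respiratory chain genes lie near 0 in H2 and H3.

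Of 20 fatty acid and myelin lipid genes, 3 fell and 0 rose (1.3% of all genes were called lower and 0.842% higher). Ugt8a (chromosome 3, 125865271 to 125938619), which makes the galactolipids of myelin, was at 834, 315, 832 and 687 CPM in the controls and at 116, 139.6 and 216 CPM under DN-HCN2. Ugt8a had a log2 fold change of -2.08 (SE 0.36, edgeR adjusted p = 0.00526), and the call stood in all 7 fits without 1 library. Scd2, a desaturase of fatty acids, was at 1307, 1252, 1866 and 1392 CPM and 507, 256 and 199 CPM, where even the highest treated library was under 0.5 times the lowest control. Scd2 had a log2 fold change of -2.18 (SE 0.44, edgeR adjusted p = 0.0161), and the call was lost without DN-HCN2 base replicates 2 or 3 (edgeR adjusted p 0.0702 to 0.0727). Acly, which supplies acetyl-CoA for both pathways, was at 324, 291, 549 and 364 CPM and 144, 201 and 210.2 CPM. Acly had a log2 fold change of -1.05 (SE 0.22, edgeR adjusted p = 0.0164), and the call stood in all 7 fits without 1 library. The list's median was -0.54. These 3 genes were each lowest among controls in replicate 2, the control with the lowest sum of glial markers (15450 CPM). Glial markers summed to 10930, 12550 and 17530 CPM in the treated libraries. The part of glial RNA in these calls was not tested.

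Of 20 Schwann and satellite markers tested, 3 were called, all lower (1.3% of all genes were), and 15 had negative values (median -0.75). Cdh19, a cadherin of Schwann cell precursors, was at 13.9, 14.6, 25.99 and 14.5 CPM and 1.94, 2.41 and 2.11 CPM. Cdh19 had a log2 fold change of -3.00 (SE 0.69, edgeR adjusted p = 0.0269), and of the 7 fits without 1 library only those without control base replicates 1 or 2 kept the call (edgeR adjusted p 0.0526 to 0.0848 in the others). In replicate 1 alone the Cdh19 value was -3.12 and not called (edgeR adjusted p = 0.235).

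Oligodendrocyte genes were present in 3 of the 4 controls and in none of the treated libraries at a like level. Mog, the defining surface protein, was at 409.7, 0.283, 199 and 151 CPM in the controls and at 0.669, 0.371 and 0.183 CPM under DN-HCN2, and was not called (edgeR adjusted p = 0.0727). Olig1, the lineage factor, was at 115, 1.20, 95.7 and 48.3 CPM and 0.0669, 0 and 0.0917 CPM, with 2 counts over the treated libraries. The ratio of means was 1151-fold (95% counting interval 318 to 9505), and edgeR called it (log2 fold change -9.98, SE 2.08, edgeR adjusted p = 0.0259), and the call was lost without control base replicate 4 or DN-HCN2 base replicates 1, 2 or 3 (edgeR adjusted p 0.0522 to 0.0887). Gjc3, a connexin of myelinating glia, was at 78.8, 59.7, 104 and 91.1 CPM and 39.6, 31.5 and 23.2 CPM (log2 fold change -1.41, SE 0.35, edgeR adjusted p = 0.0439), and of the 7 fits without 1 library only that without DN-HCN2 base replicate 1 kept the call (edgeR adjusted p 0.05 to 0.145 in the others). Several of the largest falls followed the same libraries. Nipal4, a magnesium transporter, was at 51.7, 0.565, 59.9 and 19.1 CPM in the controls and at 0 in all 3 treated libraries, at least 393-fold lower by the floor of 3 counts over the group, and of the 7 fits without 1 library only that without control base replicate 2 kept the call (edgeR adjusted p 0.0551 to 0.102 in the others). Tmem88b was at 66.3, 1.41, 36.8 and 37.01 CPM and 0, 0.0927 and 1.10 CPM, and of the 7 fits without 1 library only that without control base replicate 2 kept the call (edgeR adjusted p 0.0581 to 0.144 in the others). Gfap, an intermediate filament of glia, was at 18.4, 3.46, 16.6 and 19.8 CPM and 0.335, 0.463 and 0.0917 CPM, and of the 7 fits without 1 library only that without control base replicate 2 kept the call (edgeR adjusted p 0.0729 to 0.128 in the others). Control replicate 2 was lowest of the controls for Olig1, Nipal4, Tmem88b and Gfap. Slc6a13, a GABA transporter, did not follow that order, at 35.9, 102, 3.73 and 0.281 CPM in the controls and 0 in all treated libraries (at least 429-fold lower by the same floor), and of the 7 fits without 1 library only that without control base replicate 4 kept the call (edgeR adjusted p 0.0556 to 0.124 in the others).

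The 10 largest rises included 3 macrophage markers, Csf1r, Cd68 and Adgre1. Csf1r, the receptor that macrophages need to survive, was at 3.57, 2.76, 2.44 and 1.83 CPM in the controls and at 2.41, 454 and 227 CPM under DN-HCN2. Cd68, a lysosomal protein of macrophages, was at 1.74, 1.77, 1.49 and 0.985 CPM and 3.55, 306 and 30.2 CPM. Adgre1, the F4/80 antigen, was at 0.0872, 0.0707, 0 and 0 CPM and 0.669, 11.03 and 43.02 CPM. All 3 were highest in replicates 2 and 3, and Csf1r in replicate 1 lay inside the control range. Csf1r had a log2 fold change of 6.42 (SE 1.38, edgeR adjusted p = 0.0259), and of the 7 fits without 1 library only those without DN-HCN2 base replicates 1 or 3 kept the call (edgeR adjusted p 0.0657 to 0.0849 in the others). Cd68 had a log2 fold change of 6.24 (SE 1.31, edgeR adjusted p = 0.0213), and of the 7 fits without 1 library only those without DN-HCN2 base replicates 1 or 3 kept the call (edgeR adjusted p 0.0595 to 0.133 in the others). Adgre1 had a log2 fold change of 8.59 (SE 1.76, edgeR adjusted p = 0.015), and the call was lost without control base replicate 4 or DN-HCN2 base replicate 3 (edgeR adjusted p 0.0569 to 0.0721). These 3 were the calls among 18 macrophage markers, all 18 positive, with a median of 4.69 that became -0.07 in replicate 1 alone. Of the other largest rises, Acp5 and Mmp9, both made by osteoclasts and macrophages, reached 4663 and 1134 CPM in replicate 2 against at most 6.23 and 13.3 CPM in the other 2 treated libraries. For Acp5, of the 7 fits without 1 library only those without DN-HCN2 base replicates 1 or 3 kept the call (edgeR adjusted p 0.0546 to 0.88 in the others). For Mmp9, the call was lost without control base replicates 1, 2 or 3 or DN-HCN2 base replicate 2 (edgeR adjusted p 0.103 to 0.613). Slc37a2, a sugar-phosphate transporter, was at 0.469, 529 and 18.4 CPM in the treated libraries, lower than any control in replicate 1, and of the 7 fits without 1 library only those without DN-HCN2 base replicates 1 or 3 kept the call (edgeR adjusted p 0.104 to 0.539 in the others). Cd209f, a lectin, was at 0.87, 4.73 and 121 CPM, and of the 7 fits without 1 library only those without DN-HCN2 base replicates 1 or 2 kept the call (edgeR adjusted p 0.0507 to 0.341 in the others). Stab1, a scavenger receptor, was at 1.67, 36.6 and 167 CPM, and of the 7 fits without 1 library only that without DN-HCN2 base replicate 1 kept the call (edgeR adjusted p 0.0696 to 0.147 in the others).

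Of 17 supporting cell markers, 3 were called, all higher (0.842% of all genes were): Tectb, Otog and Fgfr3. The list's median of 1.16 became 0.11 without DN-HCN2 replicate 1, and the markers summed to 472 CPM in replicate 2, below every control. Tectb, a protein of the tectorial membrane, was at 3.49, 2.33, 0.95 and 1.90 CPM in the controls and at 1653, 40.6 and 419 CPM under DN-HCN2, highest in replicate 1. Tectb had a log2 fold change of 8.36 (SE 1.86, edgeR adjusted p = 0.0317), and of the 7 fits without 1 library only those without DN-HCN2 base replicates 1 or 2 kept the call (edgeR adjusted p 0.0511 to 0.096 in the others). In replicate 1 alone it was still called (9.62, edgeR adjusted p = 0.0473). Otog, another protein of inner ear membranes, was at 1.13, 0.0707, 0.407 and 0.985 CPM and 11.3, 7.60 and 39.5 CPM (log2 fold change 4.92, SE 1.20, edgeR adjusted p = 0.0464), and of the 7 fits without 1 library only that without DN-HCN2 base replicate 1 kept the call (edgeR adjusted p 0.0572 to 0.133 in the others). Fgfr3, a receptor of supporting cells, was at 1.22, 0.777, 0.543 and 1.05 CPM and 9.04, 3.52 and 194 CPM, with replicate 3 far above the rest (log2 fold change 6.26, SE 1.55, edgeR adjusted p = 0.0477), and of the 7 fits without 1 library only those without DN-HCN2 base replicates 1 or 2 kept the call (edgeR adjusted p 0.101 to 0.26 in the others). The controls of the apex held more of these transcripts than those of the base, with Tectb at 281, 454, 1009 and 120.2 CPM and Otog at 2.94, 105, 104 and 6.18 CPM.

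Some lysosomal, ferritin and Golgi genes rose, with all 3 treated libraries above the controls. These 4 genes were named after their values were seen. Gm2a, the lysosomal activator of ganglioside breakdown, was at 72.2, 78.02, 116 and 82.5 CPM in the controls and at 204, 238 and 204 CPM under DN-HCN2. Gm2a had a log2 fold change of 1.31 (SE 0.24, edgeR adjusted p = 0.00605), and the call stood in all 7 fits without 1 library. In replicate 1 alone the Gm2a value was 1.26. Ctsz, a lysosomal protease, was at 108, 102, 92.2 and 91.9 CPM and 173, 509.8 and 214 CPM, highest in replicate 2. Ctsz had a log2 fold change of 1.60 (SE 0.28, edgeR adjusted p = 0.00526), and in replicate 1 alone the value was 0.84 (edgeR adjusted p = 0.193). Ftl1, the ferritin light chain, was at 994, 806, 891 and 766 CPM and 1710, 2394 and 2388 CPM. Ftl1 had a log2 fold change of 1.32 (SE 0.21, edgeR adjusted p = 0.00185), and of 1.01 in replicate 1 alone. However, 78.9% of its 50-base stretches occur in another transcript and its count is uncertain. B4galt1, a galactosyltransferase of the Golgi, was at 14.2, 12.1, 23.5 and 13.4 CPM and 70.8, 55.05 and 62.6 CPM. B4galt1 had a log2 fold change of 1.99 (SE 0.37, edgeR adjusted p = 0.00644), and of 2.19 in replicate 1 alone. With macrophage markers as a covariate, Gm2a and Ctsz lost the call (edgeR adjusted p = 0.0564 and 0.12). Ftl1 and B4galt1 kept it in that fit (edgeR adjusted p = 0.0444 and 0.0335). The source of these rises was not tested.

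Apoptosis genes had 0 of 19 called, although 7 of them had all treated libraries above all controls (8.02% of all genes did) and the median was 0.36. Bax, which opens the mitochondrial outer membrane, was at 55.1, 52.7, 42.9 and 44.04 CPM and 71.8, 72.4 and 70.9 CPM, with a log2 fold change of 0.56 (SE 0.17, edgeR adjusted p = 0.0744). Trp53, an upstream regulator of Bax, overlapped at 30.3, 27.98, 33.6 and 24.1 CPM and 23.8, 23.7 and 25.04 CPM. Axon injury genes had 0 of 13 called and a median of 1.38, which was 0.47 without replicate 1. Kinesin and dynein motor genes had 0 of 25 called, with 9 below all controls (9.03% of all genes were) and a median of -0.40. Kif5a, a motor of axonal transport, was at 296, 295, 307 and 321 CPM and 175, 224 and 229.8 CPM (edgeR adjusted p = 0.273). Neurofilament and microtubule genes had 0 of 26 called, and Nefh overlapped at 2143, 2400, 1138 and 1888 CPM and 1415, 1782 and 2882 CPM. Neurotrophins and receptors had 0 of 15 called, and Ntrk2 and Ntrk3 overlapped, with log2 fold changes of -0.17 and -0.58.

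**Figure D4:**
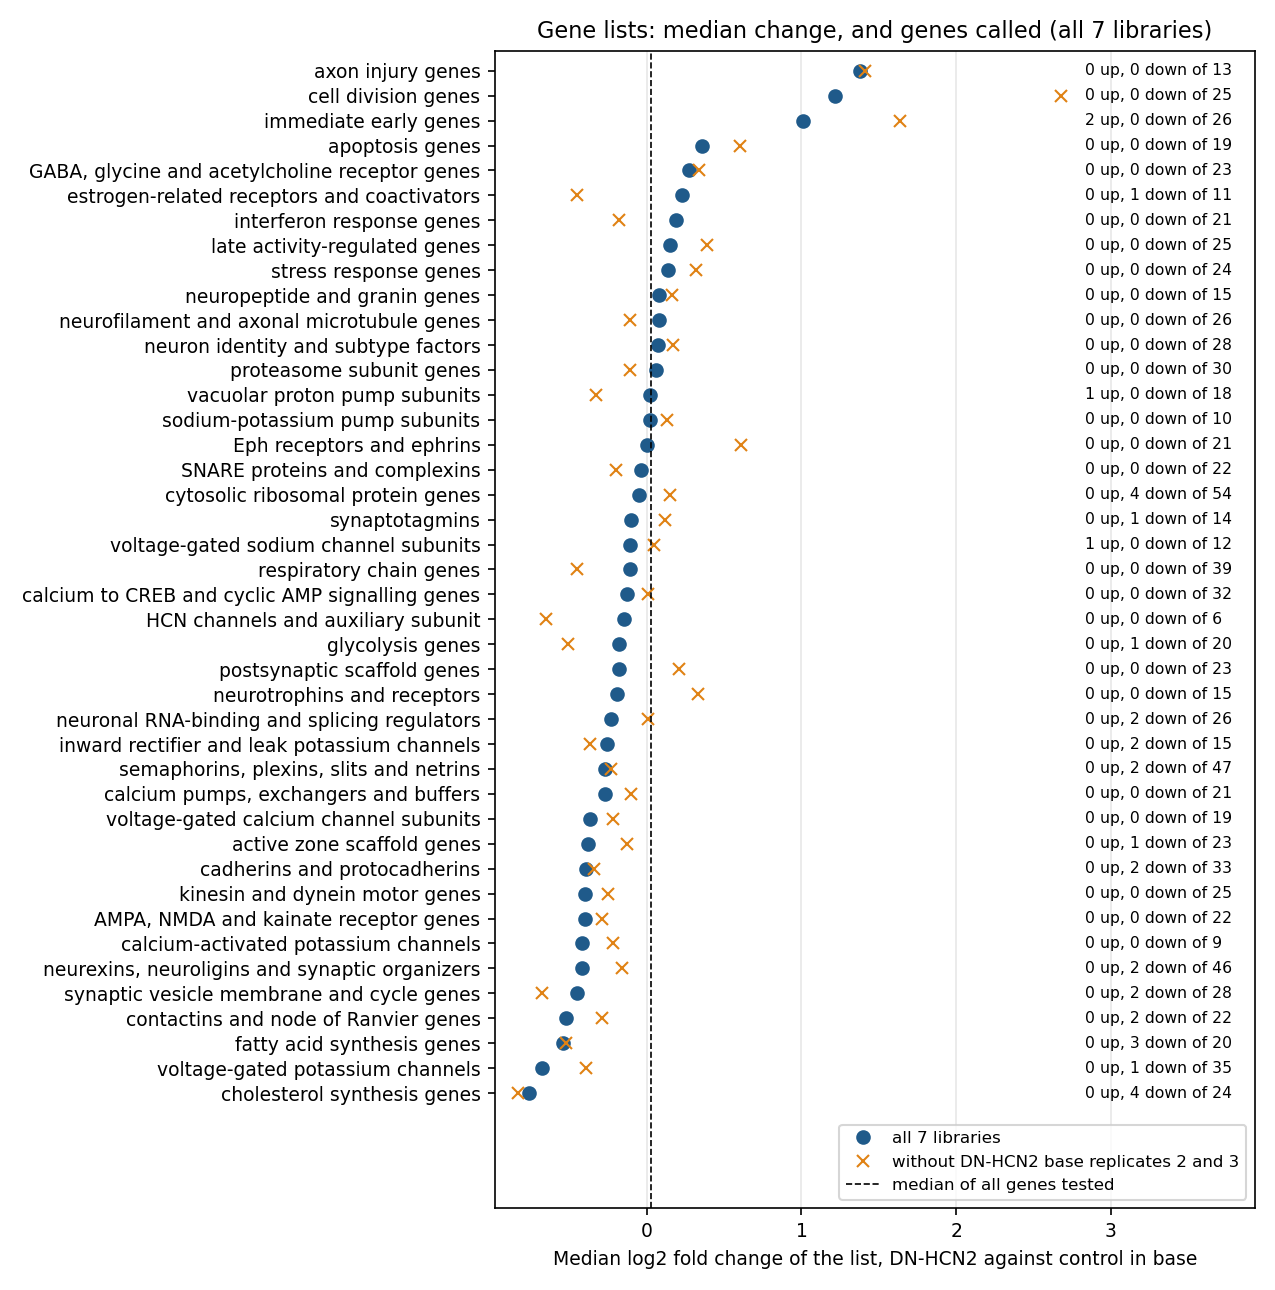
Median log2 fold change of each gene list, DN-HCN2 against control in base; blue points use all 7 libraries, orange crosses leave out DN-HCN2 replicates 2 and 3, the dashed line is the median of all genes tested (0.03) and the text gives the genes called with all libraries. Immediate early genes (1.01 and 1.64) and cholesterol genes (-0.76 and -0.83) keep their sides in both, whereas estrogen-related receptors and coactivators go from 0.23 to -0.45.

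Several of the smallest p-values belonged to genes that differed alike from control in the other treated groups. Rpl29 (chromosome 9, 106429454 to 106431568), a ribosomal protein gene, was at 118, 132, 104 and 120.2 CPM in the controls and at 7.77, 6.76 and 7.06 CPM under DN-HCN2. Truncated SK3 base had 5.20, 7.67 and 8.61 CPM and DN-HCN2 apex 8.16, 7.96, 8.46 and 9.04 CPM, against 122, 107, 124 and 102 CPM in control apex. Rpl29 had a log2 fold change of -4.04 (SE 0.21, edgeR adjusted p = 1.86e-10). The 3 treated groups had like values, and 47.9% of its 50-base stretches occur in another transcript. Rpl26 was at 186, 176, 133 and 159 CPM and 16, 20.3 and 20.4 CPM, with 18.97, 18.3 and 21.9 CPM under truncated SK3 (sharing 47.4%). Rpl34, which shares 6.93%, was at 117, 77.7, 60.6 and 94.1 CPM and 17.8, 10.5 and 9.81 CPM, with 7.55, 10.5 and 14.8 CPM under truncated SK3. Rps18 was at 103, 119.6, 66.9 and 131 CPM and 52.6, 49.2 and 30.8 CPM, and its call was lost without DN-HCN2 base replicate 3 (edgeR adjusted p = 0.0588). It completed the 4 falls among 54 cytosolic ribosomal genes, whose median was -0.05 (1.3% of all genes were called lower). Rpl35a, outside the list and named after its values were seen, was at 83.3, 82.7, 70.2 and 76.5 CPM and 21.5, 20.8 and 10.5 CPM, with 19.7, 14.2 and 29.3 CPM under truncated SK3.

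Cox15 and Them5 belonged to the same group with little sequence sharing. Cox15 (chromosome 19, 43733254 to 43753000), which makes the heme of cytochrome oxidase, was at 47.8, 45.6, 70.2 and 67.05 CPM in the controls, 9.51, 16.5 and 11.3 CPM under DN-HCN2 and 9.69, 20.6 and 19.1 CPM under truncated SK3. Cox15 had a log2 fold change of -2.21 (SE 0.33, edgeR adjusted p = 0.0012), and the call stood in all 7 fits without 1 library. Them5 (chromosome 3, 94342099 to 94347352), a mitochondrial thioesterase, was at 138, 195, 155 and 215 CPM, 2.61, 0.185 and 1.38 CPM and 19.9, 6.05 and 6.87 CPM in the same 3 groups. Them5 had a log2 fold change of -6.92 (SE 0.97, edgeR adjusted p = 0.0012), and the call stood in all 7 fits without 1 library. H2-Bl, of the major histocompatibility class I family, is annotated as a polymorphic pseudogene. It was at 9.41, 12.2, 5.90 and 17.4 CPM in the controls, 0.335, 0 and 0 CPM under DN-HCN2 and 0.204, 0.0807 and 0.194 CPM under truncated SK3. Its call was lost without DN-HCN2 base replicates 2 or 3 (edgeR adjusted p 0.054 to 0.058). Rises of this kind were Dynlt1b, a dynein light chain (4.88, 4.66, 3.60 and 2.32 CPM to 62.3, 85.6 and 64.95 CPM, and 48.7, 50.9 and 50.7 CPM under truncated SK3), the histone gene Hist3h2ba (16.2, 10.7, 14.7 and 21.5 CPM to 40.1, 61.1 and 68.5 CPM, and 101, 74.8 and 98.96 CPM) and the enolase copy Eno1b (40.1, 44.7, 45.8 and 46.01 CPM to 129, 129.6 and 299.9 CPM, and 232, 230.5 and 272 CPM). They share 83.2%, 22.1% and 84.5% of their stretches with other transcripts. Hddc3, at 40.5, 15.8, 17.2 and 25.96 CPM and 81.95, 109 and 87.05 CPM, overlaps an antisense gene over 65.0% of its exons. Ublcp1, at 162, 168, 161 and 150.5 CPM and 59.9, 80.4 and 91.4 CPM, shares 33.5%, and the glycolysis gene Gapdh, at 128, 118, 113 and 104 CPM and 59.2, 82.2 and 64.3 CPM, 27.2%. The counts of these genes are uncertain for that reason. Gapdh had a log2 fold change of -0.76 (edgeR adjusted p = 0.0225), against -0.16 for DN-HCN2 in the apex and -0.47 for truncated SK3 in the base. Only the fits without control base replicates 3 or 4 or DN-HCN2 base replicate 2 kept its call (edgeR adjusted p 0.052 to 0.0767 in the others). It was also lost after correction for GC content and length (edgeR adjusted p = 0.0896). The comparisons with control in the base share the 4 control libraries, so the like values of the 2 constructs are not independent.

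Whether the basal response differed from the apical one was tested as an interaction. It called 1 of 14968 genes (0.00668%), Adgre1, which was at 3.25, 0.926, 0.61 and 16.1 CPM in control apex and at 0, 0, 0.0829 and 0 CPM in DN-HCN2 apex (interaction 16.11 on the log2 scale, SE 2.46, edgeR adjusted p = 0.0278). In the apex the level was highest in control replicate 4 and in the base in DN-HCN2 replicate 3. Without control apex replicate 4, or without any 1 library of control base or DN-HCN2 apex, or without DN-HCN2 base replicate 2 or 3, edgeR called 0 genes (unadjusted p-values under 0.05 numbered 812 to 1596). Without DN-HCN2 base replicate 1 it called 34. With all libraries DESeq2 called 123 genes and limma-voom 0, with 1026 unadjusted p-values under 0.05 in edgeR and 1047 in limma-voom. The next genes by p, Cd209f, Fcgr2b, Fcgr3 and Csf1r, are immune receptors as well, at an edgeR adjusted p of 0.184 each. Sema5a differed by -1.36 (edgeR adjusted p = 0.215), with apical values of 257, 217, 225 and 241 CPM in the controls and 88.04, 142, 239 and 158 CPM under DN-HCN2. Cholesterol genes had a median of -0.02 in the apex. Hmgcs1 there was at 403, 345, 382 and 459.8 CPM and 409.5, 378, 351 and 432 CPM, and its interaction was -1.42 (edgeR adjusted p = 0.533). Syt2, Cntn1 and Esrrg had interactions of -0.75, -0.31 and -0.39 (edgeR adjusted p = 0.634, 0.845 and 0.907). Adgre1, the sole call of this test, is a macrophage marker with 2 counts over control base and 1 over DN-HCN2 apex. Its call was lost in most fits without 1 library and with macrophage markers as a covariate. No basal change is therefore called particular to the base here.

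Against truncated SK3 in the base, a contrast that does not use the controls, edgeR called 36 genes (0.241%), with 10 higher (0.0668%) and 26 lower (0.174%) under DN-HCN2. The count rested on single libraries: it was 7, 15 and 109 without truncated SK3 base replicates 1, 2 and 3, and 104 without DN-HCN2 base replicate 1. Gprc5b (chromosome 7, 118972047 to 118995211), an orphan G protein-coupled receptor, had the smallest p. It was at 17.9, 12.5 and 14.4 CPM under DN-HCN2 and 106, 117 and 83.1 CPM under truncated SK3, with the controls between them at 26.9, 34.5, 38.2 and 35.6 CPM. The log2 difference was -2.77 (SE 0.23, edgeR adjusted p = 1.72e-06). Map3k1 was at 119, 97.4 and 87.2 CPM under truncated SK3, near or within the control range, and the constructs differed by -1.92 (SE 0.22, edgeR adjusted p = 0.000241). For Adamts5, at 170, 117 and 194 CPM under truncated SK3, the difference was -1.24 (SE 0.18, edgeR adjusted p = 0.00587). Fbxo40, of an F-box ubiquitin ligase, and Lancl3 had the next smallest p-values. Fbxo40 was at 156, 109, 150.4 and 112 CPM in the controls, 38.4, 56.5 and 62.01 CPM under DN-HCN2 and 146, 164 and 134 CPM under truncated SK3 (difference -1.50, edgeR adjusted p = 0.00695). Lancl3 was at 82.5, 66.7, 94.99 and 105 CPM, 17.4, 32.1 and 30.8 CPM and 74.03, 87.3 and 116 CPM in those groups (difference -1.79, edgeR adjusted p = 0.00939).

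Other genes already described also separated the constructs. Sema5a was at 249.5, 158 and 215 CPM under truncated SK3 (-1.58, edgeR adjusted p = 0.0157), Lin7c at 93.1, 78.7 and 80.7 CPM (-1.30, edgeR adjusted p = 0.0408), and Mmp14 at 33.1, 52.6 and 55.7 CPM (2.43, edgeR adjusted p = 0.0165). Ugt8a, of myelin lipid synthesis, was at 1115, 394 and 375 CPM (-1.998, edgeR adjusted p = 0.0318). For Syt2, at 200.4, 239 and 159 CPM between the other basal groups, the constructs did not differ by the test (-0.81, SE 0.23, edgeR adjusted p = 0.115), which does not show that they act alike. Syp gave -0.91 (SE 0.22, edgeR adjusted p = 0.083) and Kcnh5 -1.50 (SE 0.40, edgeR adjusted p = 0.092).

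Without both libraries rich in macrophage markers, edgeR called 103 genes (0.64%), 45 higher (0.28%) and 58 lower (0.36%), of which 34 were among the 320. Of the 83 called genes followed here, 22 kept the call, 58 lost it and 3 changed sign. Genes named above that kept it include Map3k1, Syp, Scn2b, Adamts5, Lama1, Dmd, Nptn, Fbxo40, Lancl3, Ltbp3 and B4galt1. Their log2 fold changes in replicate 1 alone were -2.10, -1.64, 1.73, -1.30, -2.18, -2.77, -1.04, -1.75, -2.30, 1.72 and 2.19 in that order. With the summed macrophage markers as a covariate, 106 genes (0.708%) were called and 74 of them were among the 320.

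**Figure D5:**
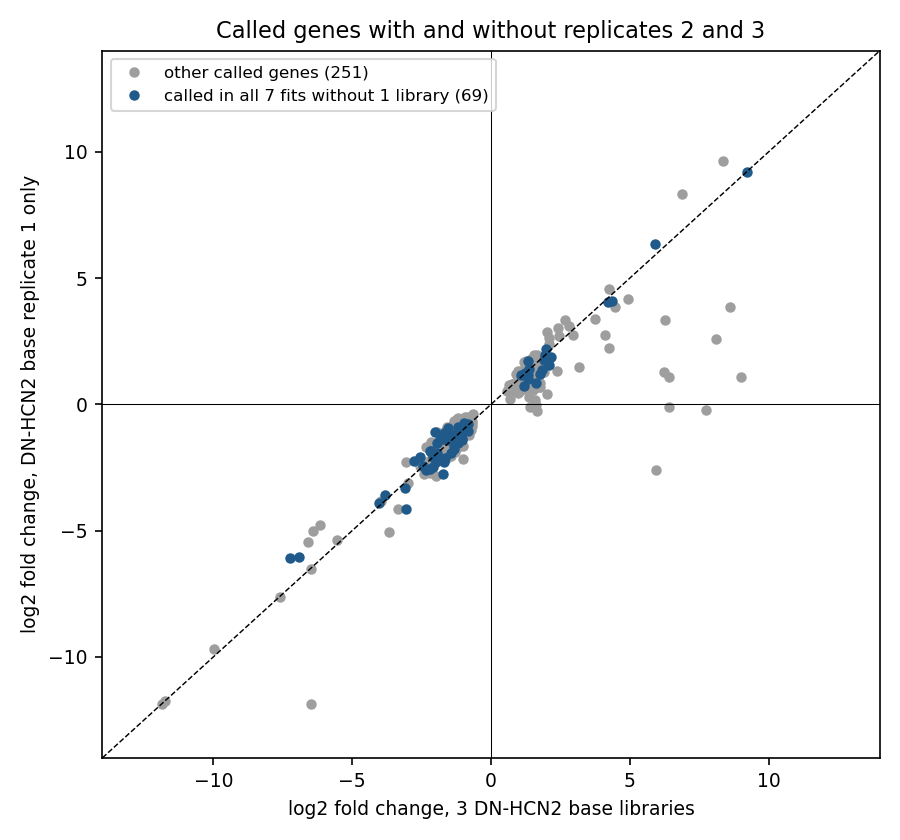
Log2 fold change of the 320 called genes with all 3 DN-HCN2 libraries (horizontal) and with replicate 1 only (vertical); the dashed line marks equal values. The 69 genes called in all 7 fits without 1 library are blue, and Csf1r, Mmp9 and Slc37a2 drop from 6.42, 7.74 and 5.93 to -0.11, -0.23 and -2.62.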

How the data were processed

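Counts of reads per gene in 21 libraries (21878 gene rows, 27 of them symbols turned into dates) were used as the authors deposited them. The submitters' processing notes name Trimmomatic, HISAT2, DESeq2 and the builds GRCm38 and mm10. The counter, its annotation and its use of strand are not given in the sources used here. From the deposited counts, CPM were computed as counts per 1000000 of the library total times its TMM factor, and edgeR 4.0.16 (R 4.3.3) fitted its robust quasi-likelihood model with TMM scaling and a mean for each of 6 groups to all 21 libraries. Of the rows, 14968 passed filterByExpr. P-values were adjusted by Benjamini-Hochberg over all of these at 0.05. The alternatives used DESeq2 1.42.0, limma 3.58.1, other filters and scalings, fewer libraries, covariates for macrophage markers, and GC content and length. The code was tested on simulated counts with a spread estimated from these data. For DN-HCN2 against control in base, it called 0% of 1.5-fold, 7.46% of 2-fold and 43.9% of 4-fold changes. A gene or list without calls may therefore still have changed. The counting intervals and floors cover counting error only.

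Named genes were the HCN list, the 10 largest rises and falls among calls with at least 10 CPM, the 12 smallest p-values called in all 7 fits without 1 library, up to 4 called members of each of 51 lists, and the 5 smallest p-values of each other comparison. Further genes were picked as examples after their values were seen. The members and lists were chosen with earlier results of these data known. Sequence sharing and antisense overlap came from the reference transcripts of GRCm38. Some genes of the named sets are not reported here.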

Additional observations from a re-analysis of the deposited data

Results flagged for a closer look

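Within control base, 4 genes had a library far from the other 3. Acp5 was at 11.1 CPM in replicate 4 and under 1 CPM in the others. Mmp9 was at 6.90 CPM in replicate 4 and at 0.136 CPM at most in the others. Cdh19 was at 25.99 CPM in replicate 3 and at 13.95 to 14.6 CPM in the others. Plxnb3 was at 7.42 CPM in replicate 2 and at 43.2 to 49.6 CPM in the others. The test was made on 94 groups of values, and chance alone flags about 1 in 20.

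For Adgre1, a macrophage marker, the difference between DN-HCN2 and control differed between base and apex by 16.11 on the log2 scale (edgeR adjusted p = 0.0278). Its level was above every control in 3 of 3 DN-HCN2 libraries of the base and below every control in 4 of 4 of the apex. The value rested on 2 counts over control base and 1 over DN-HCN2 apex. The call was lost in most fits without 1 library.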

How the results depend on the processing

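Calls for DN-HCN2 against control in base numbered 320 with all libraries and 107 to 569 without 1 library. They numbered 1101 by DESeq2, 141 with a replicate block (134 of them among the 320), 103 without both libraries rich in macrophage markers, 106 with macrophage markers as a covariate and 199 with GC content and length corrected. The 5 settings of scaling, filters, limma-voom and only the libraries compared gave 234 to 454 calls, and leaving out genes of other cell types 308. With only the libraries compared, which takes the spread from these alone, 238 genes were called, 151 of them among the 320. The share of higher calls was 39.4%, and 59.7% by limma-voom. For the difference between base and apex, 1 call became 123 by DESeq2 and 0 to 34 without 1 library. It became 0 by limma-voom, with a replicate block, without both macrophage-rich libraries, without genes of other cell types and with the covariate, where 1047, 812, 1192, 980 and 781 unadjusted p-values were under 0.05. For DN-HCN2 against truncated SK3, 36 calls became 530 by DESeq2, 21 by limma-voom, 7 with only the libraries compared, 11 with a replicate block, 81 without both macrophage-rich libraries and 7 to 109 without 1 library. Without both macrophage-rich libraries 3 named genes changed sign: Csf1r (-0.11), Mmp9 (-0.23) and Slc37a2 (-2.62). Over all settings, results for single named genes kept their side of the threshold in 1089 cases and lost the call in 418. The cause of these differences was not tested.

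Same-numbered control and DN-HCN2 libraries of the base had correlations of -0.00352, -0.0192 and -0.0443 over 9974 genes, and differently numbered ones -0.134 to 0.0754. These values gave no sign of pairing by number between control base and DN-HCN2 base, but so few libraries cannot exclude it. Pairing of base with apex libraries was not tested, and the interaction treated its libraries as independent. Genes at 0 in all DN-HCN2 libraries are limited by the floor of 3 counts over the group.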
